A study of Mus musculus with 39 samples.

Results

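Livers of Ins2+/- mice fed diet B were set against livers of Ins2+/- mice fed diet A, 5 libraries on each diet, which are 10 of the 39 RNA sequencing libraries of the study. They were chosen by the tissue, genotype and diet on their labels, and all 11777 genes that passed the filter on low counts were tested. The mice were females aged 25 weeks on a mixed C57BL/6 and 129 background, killed after a fast of 4 h. All of them lacked the insulin gene Ins1 (Ins1-/-), and Ins2+/- mice kept a single working copy of the other mouse insulin gene, Ins2. Diet B (Research Diets D12330) held 5.56 kcal per g, with 58% of calories from fat, 26% from carbohydrate and 16% from protein. Diet A (LabDiet 5LJ5) held 4.68 kcal per g, with 25% from fat, 55% from carbohydrate and 20% from protein. The diets thus differ in all 3 nutrients at once and in their maker, whose parts cannot be told apart. Ins1-/- mice with both copies of Ins2 (Ins2+/+) gave 4 livers on diet B and 5 on diet A. They entered the same fit, so they share its filter, scaling and estimate of spread with the Ins2+/- livers. They also serve the test of whether a diet effect differed between genotypes, and their values are set beside those of Ins2+/- livers. No mouse carried a working Ins1, so no group is wild type for insulin.

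The liver takes up dietary lipid, makes cholesterol, bile acids and lipoproteins, burns fatty acids, and releases glucose when insulin is low. Its sterol synthesis genes are switched on together by the transcription factor SREBP2 when sterol in the endoplasmic reticulum is scarce. Fatty acid oxidation genes are induced through the nuclear receptor PPAR-alpha, for which fatty acids are ligands. Insulin restrains the genes of glucose release and promotes those of fatty acid synthesis, in part through the IRS adaptor proteins.

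Levels are given as counts per 1000000 counts of the library, scaled by edgeR's TMM method (normalised CPM), as mean ± SD with n = 5 on each diet, and differences as the log2 ratio of diet B over diet A ± SE. Unless another tool is named, p values come from the quasi-likelihood test of edgeR, adjusted by Benjamini and Hochberg over the 11777 genes, and calls were made below an adjusted p of 0.05. The labels call the replicates separate samples of a group, and where they are not separate animals the p values measure only the spread between libraries.

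Libraries held a total of estimated counts from 3911764 to 54249818 on diet B (median 10254729) and from 1289225 to 12562612 on diet A (median 4906021). A count of 0 allowed up to 3 counts, or 0.0553 to 0.767 CPM on diet B and 0.239 to 2.33 CPM on diet A, for counting error only. Mitochondrially encoded genes took 7.17% to 8.241% of counts on diet B and 6.352% to 8.024% on diet A. The 2 deepest libraries, diet B 2 and B 3, resembled each other more than any other pair of replicates compared at 1 depth: after thinning, their chi-square per degree of freedom was 1.29, against 3.73 for the next pair. Diet A 5 was too shallow for that comparison, and its pairs were compared at full depth alone (6.59 to 8.47, against 6.1 for B 2 and B 3). They still differed beyond counting noise and were kept as 2 libraries, but they may come from 1 animal, so each main result is also given with their counts summed as 1 library. Ins1 had 0 counts in all 10 livers. Hormone transcripts of the pancreatic islet (Iapp, Gcg, Sst and Ppy) together reached 1690 CPM, before TMM scaling, in diet B 1 and 13 CPM in B 3, and 56.4 CPM in diet A 1 and 128 CPM in A 2, while the other 6 livers held 0.65 CPM or less. Ins2, also an islet transcript, ran at 2005, 0.2969, 26.24, 0.4241 and 0.2484 normalised CPM in diet B livers and at 119.7, 159.4, 1.029, 0.2368 and 0.7539 in diet A livers, so its level does not check the genotype. Albumin and the other 9 hepatocyte markers were present in every liver, and their summed level was 127800 to 139000 normalised CPM on diet B and 108800 to 163400 on diet A.

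Between the diets 5 genes were called in Ins2+/- livers, 0.0425% of the genes tested. Tns2, Grpel2 and Fnip1 were higher on diet B (0.0255% of genes), and Ccnd1 and Dhcr7 were lower (0.017%). The 2 genes called lower are a cell cycle gene and the gene of the last step of one route to cholesterol. A wider set of 1448 genes had an unadjusted p below 0.05, 782 with higher and 666 with lower levels on diet B, and the median log2 ratio of all genes was -0.001.

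**Figure D1:**
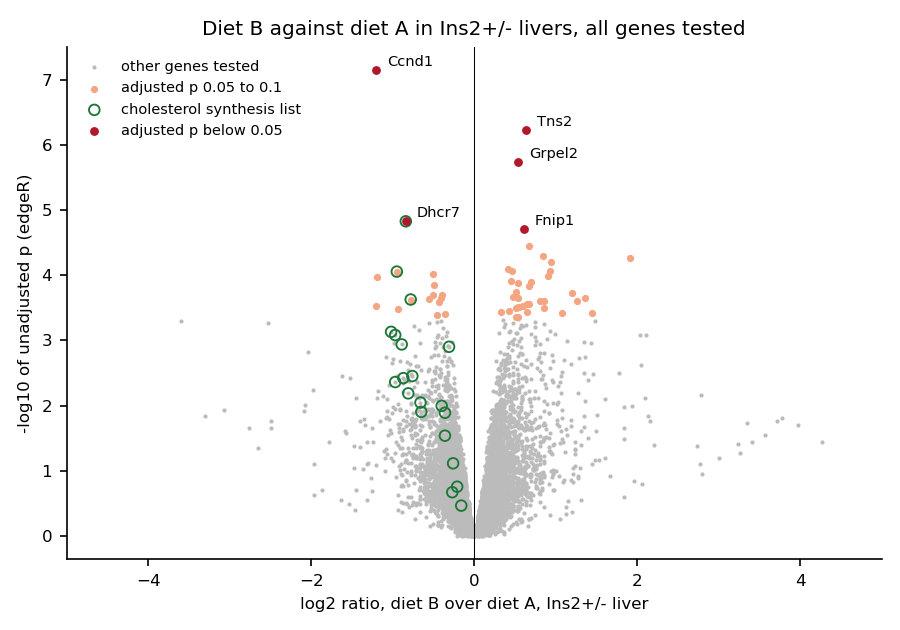
Each point is a gene tested in the 10 Ins2+/- livers, with the log2 ratio of diet B over diet A on the x axis and -log10 of edgeR's unadjusted p on the y axis; dark red points are the 5 called genes, orange points have an adjusted p from 0.05 to 0.1, and green rings are the 20 cholesterol synthesis genes. The rings all lie left of 0, and 1 gene with a log2 ratio beyond 5 is outside the plot.

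Ccnd1, which encodes cyclin D1, the cyclin that drives cells from G1 towards DNA synthesis, had the lowest p of all. Its level was 57.89, 39.04, 35.36, 48.35 and 59.38 normalised CPM in diet B livers 1 to 5 and 110.4, 95.91, 92.24, 114.4 and 134.9 in diet A livers 1 to 5. The groups did not overlap, and the highest diet B liver stood well below the lowest diet A liver. Ccnd1 fell to 48.0 ± 10.8 CPM on diet B, against 109.6 ± 17.0 CPM on diet A, a log2 ratio of -1.20 ± 0.15 and an adjusted p of 0.000836. With B 2 and B 3 summed the log2 ratio was -1.11, still called, and without both of them it was -0.98, also still called. The gene lies on chromosome 7 from 144929931 to 144939925 on the minus strand of GRCm38, and LTO1 overlaps it on the plus strand. Strand was not kept by the kit, and reads of the overlap cannot be told apart. LTO1 held 0.24 times the counts of Ccnd1, and its own log2 ratio was -0.29 ± 0.19 (edgeR adjusted p 0.569). Of the 13 proliferation genes tested, Ccnd1 was the one called. Ccne2, the cyclin of the next step, had 3.622 CPM on diet B and 1.337 CPM on diet A (log2 ratio 1.34 ± 0.40, edgeR adjusted p 0.179). Mki67, a marker of cycling cells, had 4.239 CPM on diet B and 3.027 CPM on diet A (0.28 ± 0.35). Both genes ran close to the floor of the shallow libraries, where a count of 0 in diet A 5 allows 2.33 CPM, so their ratios rest on few counts.

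Dhcr7 encodes 7-dehydrocholesterol reductase, which turns 7-dehydrocholesterol into cholesterol. It measured 51.67, 44.57, 37.96, 51.95 and 59.87 normalised CPM on diet B and 76.86, 74.68, 104.6, 88.47 and 94.99 on diet A, again with no overlap. Dhcr7 fell to 49.2 ± 8.30 CPM on diet B, against 87.92 ± 12.5 CPM on diet A (log2 ratio -0.84 ± 0.15, edgeR adjusted p 0.0435). The call was lost with B 2 and B 3 summed (-0.78, edgeR adjusted p 0.171). All 5 diet B livers, not only that pair, lay below every diet A liver, as for 0.968% of all genes tested. That separation describes the same values and does not restore the call. The gene lies on chromosome 7 from 143823145 to 143848410 on the plus strand.

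Tns2 encodes tensin 2, a focal adhesion protein that links integrins to the actin cytoskeleton. It was at 65.53, 72.42, 79.22, 63.83 and 64.10 normalised CPM on diet B and at 44.06, 47.34, 48.69, 42.69 and 39.20 on diet A. The 2 groups were wholly apart and each was tight. Tns2 rose to 69.02 ± 6.69 CPM on diet B, against 44.40 ± 3.78 CPM on diet A, which is 1.55-fold (log2 ratio 0.64 ± 0.09, edgeR adjusted p 0.00347). It was also called with B 2 and B 3 summed (0.60). Tns2 lies on chromosome 15 from 102100413 to 102116401 on the plus strand.

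Grpel2 encodes a GrpE-like cochaperone that recharges the HSP70 of the mitochondrial matrix during protein import, and lies on chromosome 18. Its level was 67.22, 74.54, 73.50, 65.10 and 62.61 normalised CPM on diet B and 48.01, 49.99, 45.95, 46.09 and 45.99 on diet A. All 5 diet A livers lay within a few CPM of each other, and all diet B livers were above them. Grpel2 rose to 68.59 ± 5.23 CPM on diet B, against 47.21 ± 1.78 CPM on diet A (log2 ratio 0.54 ± 0.08, edgeR adjusted p 0.00707), and was still called with B 2 and B 3 summed (0.51).

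Fnip1 encodes folliculin-interacting protein 1, a partner of folliculin in nutrient sensing by mTORC1 and of the energy sensor AMPK. It measured 66.37, 73.83, 74.46, 68.70 and 59.63 normalised CPM on diet B and 48.80, 35.91, 49.03, 47.59 and 43.73 on diet A. The lowest diet B liver was above the highest diet A liver. Fnip1 rose to 68.60 ± 6.07 CPM on diet B, against 45.01 ± 5.51 CPM on diet A (log2 ratio 0.61 ± 0.11, edgeR adjusted p 0.0458). With B 2 and B 3 summed it was no longer called (0.58, adjusted p 0.171). Fnip1 lies on chromosome 11 from 54438199 to 54518235 on the plus strand, and the small gene inside it, Gm24198, had 0 counts.

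**Figure D2:**
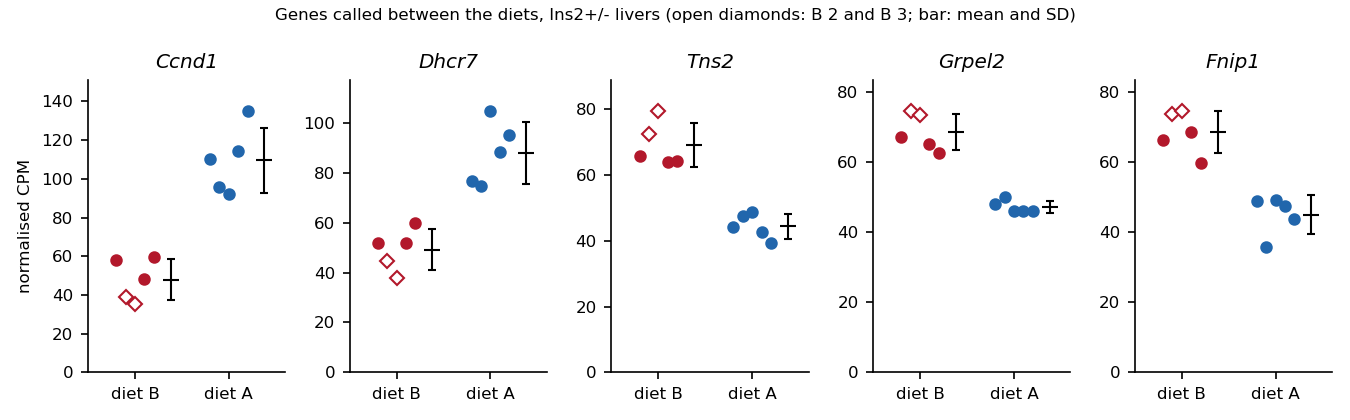
Normalised CPM of the 5 called genes in each Ins2+/- liver, diet B in red and diet A in blue, with open diamonds for the deep and alike libraries B 2 and B 3 and a bar for the mean and SD beside each group. Ccnd1 and Dhcr7 are lower on diet B and Tns2, Grpel2 and Fnip1 are higher, with no overlap between the diets in any of the 5 panels.

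Calls were few and depended on which livers entered. With B 2 and B 3 summed as 1 library, 2 genes were called higher (Tns2 and Grpel2) and 1 lower (Ccnd1), and without both of them 0 higher and 2 lower (Ccnd1 and the predicted gene Gm10175), at 979 genes with an unadjusted p below 0.05. Without the 6 livers with islet transcripts, 4 of them among the 10 compared here, edgeR called 0 genes in either direction at 1027 genes with an unadjusted p below 0.05. The 5 genes kept their direction there, with log2 ratios of -1.23 for Ccnd1 (adjusted p 0.0714), 0.61 for Tns2 (0.0759), 0.56 for Grpel2 (0.153), -0.89 for Dhcr7 (0.168) and 0.52 for Fnip1 (0.248). Leaving out diet B 5 gave 45 genes higher and 36 lower, leaving out diet B 1 gave 38 and 8, and leaving out diet A 1 gave 19 and 5. Leaving out any 1 of the other 7 livers gave 3 or 4 calls in all. Ccnd1, Tns2 and Grpel2 were called whichever of the 10 livers was left out, whereas Fnip1 lost its call in 7 of the 10 fits (edgeR adjusted p 0.0648 to 0.178) and Dhcr7 in 6 (0.0828 to 0.178). DESeq2 called 78 genes higher and 54 lower and limma-voom 267 and 286, and both called all 5 genes.

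In Ins2+/+ livers the same 5 genes had estimates of the same sign and none was called. Ccnd1 had a log2 ratio of -0.43 ± 0.16 there, Dhcr7 -0.17 ± 0.16, Tns2 0.49 ± 0.09, Grpel2 0.31 ± 0.09 and Fnip1 0.13 ± 0.12. The difference between the genotypes was tested directly. It was -0.77 ± 0.21 for Ccnd1, -0.68 ± 0.22 for Dhcr7 and 0.48 ± 0.16 for Fnip1, each with an adjusted p of 0.981. Over all 11777 genes edgeR called 0 differences between the genotypes' diet effects (0%), with 565 genes at an unadjusted p below 0.05, and DESeq2 and limma-voom also called 0. Diet effects that differ between Ins2+/- and Ins2+/+ livers were therefore not detectable with 5, 5, 4 and 5 livers, which does not show that they are alike. In Ins2+/+ livers 5 genes were called higher on diet B (0.0425%) and 0 lower (0%).

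The cholesterol synthesis genes lay lower on diet B along the whole pathway. All 20 of the 20 genes tested had a lower estimate on diet B, 16 had an unadjusted p below 0.05, and in 4 the diets did not overlap, while 1 was called. Over all genes tested 5914 of 11777 estimates were lower, 666 had a lower level at an unadjusted p below 0.05, and 114 were lower with no overlap (0.968%). The median log2 ratio of the 20 was -0.71, against -0.001 for all genes. Their summed level was 2048, 1892, 1803, 2051 and 2344 normalised CPM in diet B livers 1 to 5 and 2665, 2400, 3634, 2894 and 3329 in diet A livers 1 to 5. In diet B livers 1 to 5 the number of members below every diet A liver was 12, 15, 16, 11 and 7 of 20. Diet B 5 was thus the least shifted, and B 2 and B 3 the most. All 20 estimates were also lower with B 2 and B 3 summed (median -0.67) and without both (median -0.60). In Ins2+/+ livers the median was -0.21. With diet B 5 left out 8 of the 20 were called lower, namely Dhcr7, Msmo1, Mvk, Hmgcs1, Mvd, Idi1, Sqle and Cyp51, with adjusted p from edgeR of 0.0449 or less, with diet A 1 left out 3 were, and with B 2 and B 3 summed 0 were. No library was judged faulty, and these counts show how much the calls depend on single livers. Leaving out diet B 5, the least shifted diet B liver, widens the difference, so the calls made without it add no support.

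The first steps build mevalonate. Hmgcs1, the cytosolic HMG-CoA synthase, measured 145.9, 148.3, 153.4, 140.8 and 311.3 normalised CPM on diet B and 178.0, 244.3, 444.0, 292.2 and 426.0 on diet A. Diet B 5 stood at about the level of the diet A livers and the other 4 were below all of them. The log2 ratio was -0.81 ± 0.27 (edgeR adjusted p 0.227). Acat2, which joins acetyl-CoA at the start of the pathway, had a log2 ratio of -0.40 ± 0.14.

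The next enzymes turn mevalonate into the isoprenoid units. Mvk, mevalonate kinase, measured 12.92, 11.88, 10.06, 8.482 and 16.40 normalised CPM on diet B and 17.39, 15.51, 28.46, 20.12 and 21.86 on diet A, with only diet B 5 reaching into the diet A range (-0.78 ± 0.18, edgeR adjusted p 0.085). Mvd, the decarboxylase that follows, was at -0.97 ± 0.30 and Pmvk, the kinase between them, at -0.66 ± 0.23. Idi1, the isomerase of isopentenyl diphosphate, averaged 118.4 ± 41.8 CPM on diet B and 231.7 ± 82.8 CPM on diet A (-0.97 ± 0.25). Fdps, farnesyl diphosphate synthase, had 91.08, 79.99, 66.41, 136.1 and 133.2 normalised CPM on diet B and 156.1, 150.2, 262.0, 150.5 and 201.3 on diet A. These groups did not overlap, and the log2 ratio was -0.87 ± 0.27 (adjusted p 0.188).

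The squalene and lanosterol steps varied in size. Sqle, squalene epoxidase and a second control point, had the largest log2 ratio of the list at -1.02 ± 0.26, with 41.83 ± 10.5 CPM on diet B and 84.69 ± 37.0 CPM on diet A. Its neighbours Fdft1, squalene synthase, and Lss, lanosterol synthase, were at -0.26 ± 0.14 and -0.27 ± 0.21. Cyp51, the lanosterol demethylase, was at -0.89 ± 0.24. The diets overlapped for Sqle, Fdft1, Lss and Cyp51 alike. Msmo1, the methylsterol oxidase, measured 86.46, 83.68, 81.65, 63.19 and 112.3 normalised CPM on diet B and 134.0, 141.4, 218.8, 154.6 and 177.9 on diet A. No diet B liver reached the diet A range, and the log2 ratio was -0.95 ± 0.20 (edgeR adjusted p 0.0776). Nsdhl, the decarboxylating dehydrogenase of the same complex, was at -0.76 ± 0.23 and Hsd17b7 at -0.16 ± 0.16. Ebp, the sterol isomerase, had a small difference with no overlap, 148.7 ± 7.18 CPM on diet B and 184.8 ± 13.3 CPM on diet A (-0.31 ± 0.08, adjusted p 0.126). Tm7sf2, a sterol reductase, was at -0.36 ± 0.15, and Sc5d, the desaturase before Dhcr7, at -0.21 ± 0.15.

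**Figure D3:**
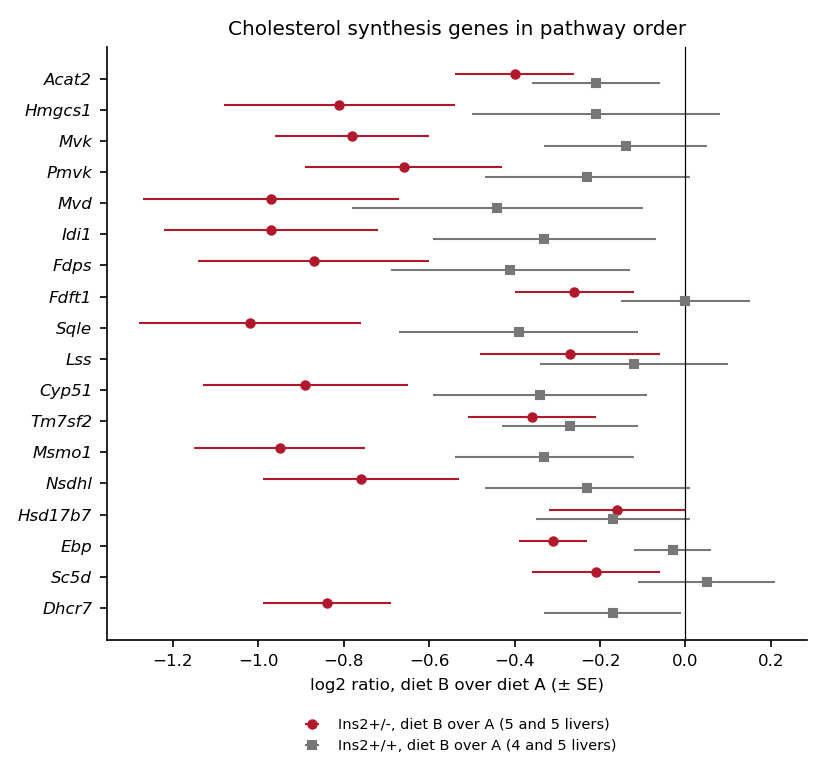
Log2 ratio of diet B over diet A ± SE for 18 of the 20 cholesterol synthesis genes in pathway order, Ins2+/- livers in red (5 and 5) and Ins2+/+ livers in grey (4 and 5). All 18 Ins2+/- estimates lie below 0, from -0.16 for Hsd17b7 to -1.02 for Sqle; the genotypes' difference passed the threshold for none of the 18.

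The regulators of the pathway were less uniform. Of 11 genes of SREBP2 control and sterol uptake tested, 0 were called, 7 estimates were lower and 4 higher, and the median was -0.11. Srebf2, the gene of SREBP2 itself, had 48.75 ± 5.22 CPM on diet B and 58.79 ± 12.8 CPM on diet A (-0.27 ± 0.13, edgeR adjusted p 0.401). Insig1, which holds SREBP back, was at -0.11 ± 0.18. Npc1, which moves cholesterol out of lysosomes, lay the other way, with 198.6 ± 41.3 CPM on diet B and 133.7 ± 20.0 CPM on diet A (0.57 ± 0.14, adjusted p 0.103).

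Because the synthesis genes lay to the same side, their promoters were examined for the elements through which SREBP2 and its partner NF-Y are known to act. RefSeq promoters of GRCm38.p6, 250 bases before to 50 after the start, matched 15 of the 20 genes and 9130 of the genes tested. The letters CCAAT, on either strand, were in 14 of the 15 (93.3%), against 3922 of the 9130 tested genes (43%) and 41.1% of all genes in the table. The share did not go with direction over all genes. Of genes at an unadjusted p below 0.05 by edgeR, CCAAT was in 45% of those lower and 42% of those higher. It was also in the promoter of Fnip1, which was called higher. The sterol element TCACCCCAC was in 1 of the 15 (6.67%), Hmgcs1, against 0.767% of tested genes. Its shorter form CACCCCAC was in 2 of the 15 (13.3%) against 3.75%, and also in the promoter of Tns2, which was called higher. The E-box CACGTG was in 3 of the 15 (20%) against 11.8%, and the AP-1 letters TGACTCA in 2 (13.3%) against 4.62%. Shown are Hmgcs1, which holds the sterol element, Mvk and Msmo1, which had among the lowest p of the list, and the one Dhcr7 promoter of 3 that holds CCAAT. Capitals mark these motifs on either strand, so that CCAAT of the opposite strand reads ATTGG and the AP-1 element reads TGAGTCA.
Hmgcs1, chr13:119690101-119690400, plus strand: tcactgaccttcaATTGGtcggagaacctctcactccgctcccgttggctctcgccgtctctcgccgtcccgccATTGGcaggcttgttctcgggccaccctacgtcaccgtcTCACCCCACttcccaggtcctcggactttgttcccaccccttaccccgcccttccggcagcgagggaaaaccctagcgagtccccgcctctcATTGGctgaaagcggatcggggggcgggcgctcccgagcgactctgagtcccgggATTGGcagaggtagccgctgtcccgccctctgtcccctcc
Mvk, chr5:114444019-114444318, plus strand: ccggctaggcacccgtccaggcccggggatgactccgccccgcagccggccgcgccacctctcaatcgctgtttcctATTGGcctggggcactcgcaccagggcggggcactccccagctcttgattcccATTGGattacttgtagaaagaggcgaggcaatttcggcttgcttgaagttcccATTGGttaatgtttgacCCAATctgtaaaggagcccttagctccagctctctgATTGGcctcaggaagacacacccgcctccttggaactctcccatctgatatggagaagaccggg
Msmo1, chr8:64733529-64733828, minus strand: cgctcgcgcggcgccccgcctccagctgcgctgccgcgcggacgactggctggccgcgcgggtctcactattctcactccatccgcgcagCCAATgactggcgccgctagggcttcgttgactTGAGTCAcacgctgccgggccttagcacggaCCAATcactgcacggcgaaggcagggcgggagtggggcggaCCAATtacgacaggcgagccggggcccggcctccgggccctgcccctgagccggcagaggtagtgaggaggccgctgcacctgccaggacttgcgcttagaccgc
Dhcr7, chr7:143829964-143830263, plus strand: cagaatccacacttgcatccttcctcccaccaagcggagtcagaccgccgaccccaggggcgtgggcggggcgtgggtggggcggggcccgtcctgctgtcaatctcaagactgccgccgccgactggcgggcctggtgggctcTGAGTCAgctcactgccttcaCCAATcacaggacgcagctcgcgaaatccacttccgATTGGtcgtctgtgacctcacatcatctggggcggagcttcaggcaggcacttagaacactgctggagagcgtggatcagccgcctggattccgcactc
Hmgcs1 holds 4 CCAAT boxes, Mvk 5, Msmo1 3 and Dhcr7 2 in these windows, and a match of letters is a description of sequence, not of binding.

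Genes of fatty acid burning lay slightly higher on diet B and none was called. In the mitochondrial fatty acid oxidation and ketogenesis list 20 of 21 estimates were higher, 6 at an unadjusted p below 0.05, with a median log2 ratio of 0.17. Over all 11777 genes tested 5863 estimates were higher, 782 at an unadjusted p below 0.05 by edgeR. In peroxisomal oxidation 10 of 12 were higher (median 0.15), and of 17 other PPAR-alpha targets 13 were higher (median 0.36). Acadl, the long-chain acyl-CoA dehydrogenase, was the 1 member of the 21 that did not overlap between diets, against 1.04% of all genes tested that were higher without overlap. It had 315.2 CPM on diet B and 272.1 CPM on diet A (0.21 ± 0.08). Cpt1a, which admits fatty acids to mitochondria, was at 0.17 ± 0.11. Libraries B 2 and B 3 each had 16 of the 21 members above every diet A liver, B 1 had 9, B 4 had 6 and B 5 had 3, so the deep and alike pair carried the largest share.

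Cyp4a14, a fatty acid hydroxylase and PPAR-alpha target, measured 578.3, 730.2, 740.2, 524.4 and 151.1 normalised CPM on diet B and 108.3, 297.7, 161.8, 157.4 and 288.0 on diet A. The first 4 diet B livers were above all diet A livers and B 5 was among the lowest (1.44 ± 0.34, edgeR adjusted p 0.0912). With B 2 and B 3 summed the log2 ratio of Cyp4a14 was 1.31 and without both 1.05, and in Ins2+/+ livers it was 1.38 ± 0.35. Apoa4, an apolipoprotein that hepatocytes make when lipid load is high, measured 462.4, 692.6, 727.1, 517.8 and 320.7 normalised CPM on diet B and 272.9, 218.1, 281.2, 158.7 and 379.2 on diet A, with B 5 alone inside the diet A range (1.07 ± 0.25, adjusted p 0.0912). Ehhadh, the peroxisomal bifunctional enzyme, had 452.5 ± 98.1 CPM on diet B and 305.4 ± 36.7 CPM on diet A (0.57 ± 0.15, adjusted p 0.117), again with B 5 in the diet A range at 283.7 CPM. With diet B 5 left out Cyp4a14 (1.68, edgeR adjusted p 0.00613), Apoa4 (1.21, 0.0227) and Ehhadh (0.70, 0.0103) were called higher. Diet B 5 was the lowest diet B liver for each of them, so leaving it out widens the difference, and these calls add no support. Cyp4a14, Apoa4 and Ehhadh were called neither in the main fit nor with B 2 and B 3 summed (edgeR adjusted p 0.249, 0.255 and 0.312 when summed). Cyp4a14 shares long stretches with other Cyp4a genes, so its value depends on how kallisto divided shared reads. Ppara itself was at 0.59 ± 0.20, and the fatty acid transporter Cd36 at 0.45 ± 0.23, while Angptl4, an inhibitor of lipoprotein lipase, was at -0.41 ± 0.19.

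Fatty acid synthesis differed more between livers than between diets. Of 19 lipogenesis genes 0 were called, 13 estimates were lower and 6 higher, and the median was -0.11. Scd1, the stearoyl-CoA desaturase, measured 2707, 2857, 1969, 6983 and 929.2 normalised CPM on diet B and 5013, 501.4, 2611, 2686 and 2762 on diet A, a range of several fold within each diet (0.19 ± 0.56, edgeR adjusted p 0.959). Fasn, fatty acid synthase, had 500.3 ± 278 CPM on diet B and 776.4 ± 150 CPM on diet A (-0.64 ± 0.30, adjusted p 0.394), and diet B 4 stood apart at 984.5 CPM. Srebf1, the main lipogenic regulator, was at 0.31 ± 0.18 and Elovl6, the fatty acid elongase, at -0.56 ± 0.35. Pklr, liver pyruvate kinase, was at -0.10 ± 0.17. The lipid droplet and lipid storage genes Cidec and Pparg were at 0.12 ± 0.42 and 0.27 ± 0.16.

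Of 28 insulin signalling genes 0 were called, 20 estimates were higher and 8 lower, and the median was 0.10. The groups did not overlap in 2 of the 28, Irs2 and Grb10, both higher, against 1.04% of all genes tested. Irs2, the adaptor that carries the insulin receptor signal and is itself repressed by insulin, measured 13.39, 16.20, 17.99, 15.69 and 18.88 normalised CPM on diet B and 9.484, 5.510, 6.515, 4.814 and 6.031 on diet A. The diets were wholly apart (16.43 ± 2.14 CPM on diet B and 6.471 ± 1.8 CPM on diet A, 1.36 ± 0.38, edgeR adjusted p 0.148). Grb10, an adaptor that binds and dampens the insulin receptor, measured 13.86, 13.97, 15.32, 13.15 and 8.447 on diet B and 5.137, 5.918, 4.115, 6.313 and 7.539 on diet A, also without overlap (1.20 ± 0.27, adjusted p 0.085). In a fit of the 10 Ins2+/- livers alone both were called higher, at edgeR adjusted p of 0.0189 for Irs2 and 0.0284 for Grb10. With B 2 and B 3 summed neither was (Irs2 1.34, adjusted p 0.312, and Grb10 1.16, 0.231). Insr, the receptor, had 166.4 ± 28.2 CPM on diet B and 135.6 ± 19.4 CPM on diet A (0.30 ± 0.12), and Irs1 18.73 ± 6.92 CPM on diet B and 16.92 ± 6.69 CPM on diet A (0.15 ± 0.27).

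Of 11 genes of gluconeogenesis and its control 0 were called, 9 estimates were higher, and the median log2 ratio was 0.03. In 1 of the 11, Sik1, diet B was higher without overlap, against 1.04% of all genes tested. Igfbp1, a secreted IGF binding protein whose gene insulin represses, measured 16.97, 95.30, 113.3, 138.9 and 205.7 normalised CPM on diet B and 16.79, 38.57, 43.89, 9.707 and 29.40 on diet A. Diet B 1 stood with the diet A livers and the other 4 were above them (2.10 ± 0.54, edgeR adjusted p 0.112). Sik1, a kinase induced by cAMP that curbs gluconeogenesis, measured 18.29, 40.95, 47.79, 52.16 and 38.76 on diet B and 17.58, 14.90, 17.49, 16.34 and 6.031 on diet A. The groups touched without overlapping, again with diet B 1 lowest of its group (1.36 ± 0.31, adjusted p 0.085). G6pc, the catalytic unit of glucose-6-phosphatase, had 582.8 ± 304 CPM on diet B and 299.9 ± 70.4 CPM on diet A (0.96 ± 0.27, adjusted p 0.156), whereas Pck1, the cytosolic PEP carboxykinase, was at 0.41 ± 0.26. Ghr, the growth hormone receptor, did not overlap (639.5 ± 135 CPM on diet B and 438.9 ± 58.7 CPM on diet A, 0.54 ± 0.13, adjusted p 0.098), and its main output Igf1 was at 0.08 ± 0.16. With diet B 1 left out Igfbp1 (2.38, edgeR adjusted p 0.0266), Sik1 (1.54, 0.0256) and G6pc (1.14, 0.0414) were called higher. Diet B 1 was the lowest diet B liver for Igfbp1 and Sik1, so leaving it out widens the difference, and these calls add no support. Igfbp1, Sik1 and G6pc were called neither in the main fit nor with B 2 and B 3 summed (edgeR adjusted p 0.247, 0.231 and 0.27 when summed). Igfbp2 was at -0.34 ± 0.18 and the hormone gene Fgf21 at -0.20 ± 0.71, with 2 diet A livers above all others.

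**Figure D4:**
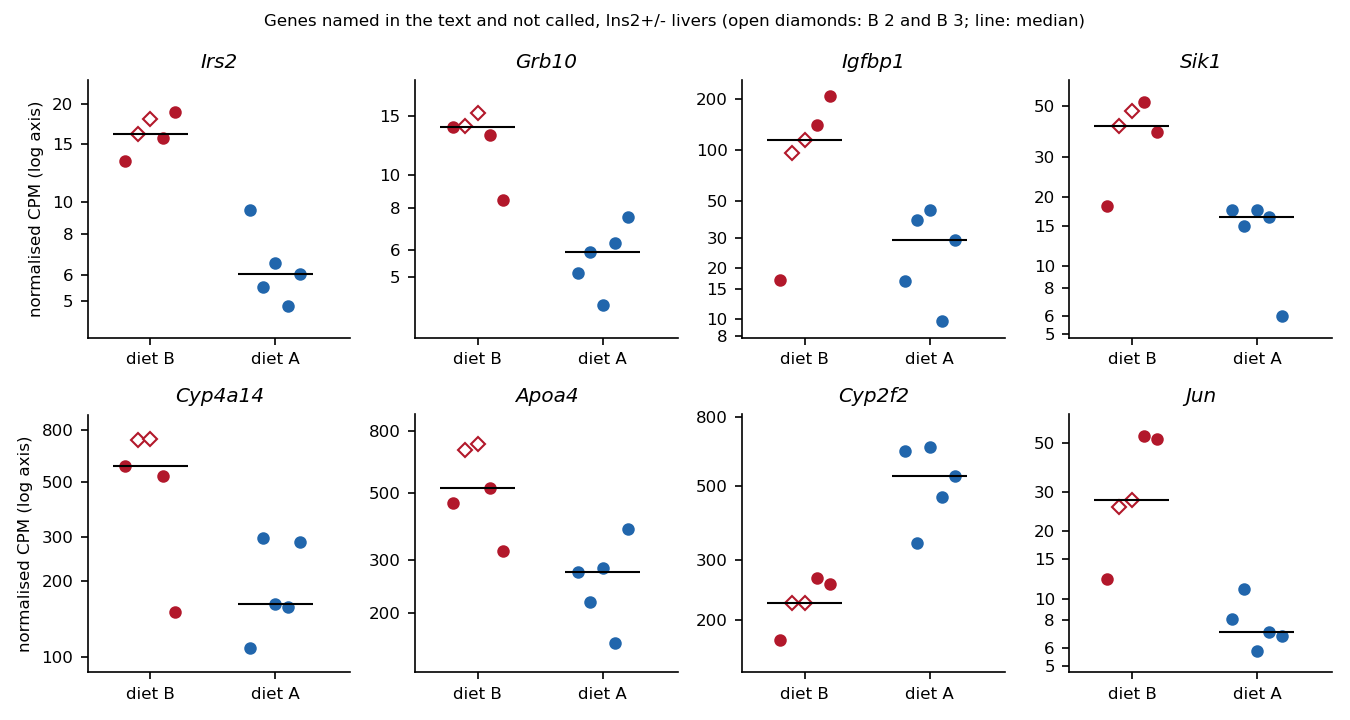
Normalised CPM on a log axis of 8 genes named in the text and not called, in each Ins2+/- liver, diet B in red and diet A in blue, with open diamonds for B 2 and B 3 and a line at each group's median. Irs2, Grb10, Sik1, Cyp2f2 and Jun have separate groups, while Igfbp1, Cyp4a14 and Apoa4 each have a single diet B liver inside the diet A range.

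Bile acid and detoxification genes lay mostly lower. Cyp7a1, the rate-limiting enzyme of bile acid synthesis, measured 396.9, 207.6, 203.7, 151.6 and 154.3 normalised CPM on diet B and 392.4, 258.5, 420.0, 480.4 and 554.1 on diet A. Diet B 1 was apart from its group, and the other 4 were below every diet A liver (-0.91 ± 0.26, edgeR adjusted p 0.156). Without diet B 1 Cyp7a1 was called lower (-1.23, edgeR adjusted p 0.0266). Leaving out the diet B liver nearest to diet A widens the difference, so that call adds no support. Cyp7a1 was called neither in the main fit nor with B 2 and B 3 summed (-0.88, edgeR adjusted p 0.341 when summed). Of 17 bile acid genes 13 estimates were lower (median -0.15). Cyp8b1, which sets the share of cholic acid, was at 0.23 ± 0.30. Of 39 cytochrome P450 genes of families 1 to 3, 26 were lower (median -0.16) and 0 were called. Cyp2f2, a P450 of periportal hepatocytes, measured 174.9, 224.4, 223.8, 265.7 and 255.9 normalised CPM on diet B and 632.2, 338.9, 649.1, 463.7 and 533.0 on diet A. The diets were apart, at 0.437-fold (-1.19 ± 0.25, adjusted p 0.0776). With B 2 and B 3 summed the log2 ratio was -1.19 with an adjusted p of 0.231, and without both it was -1.18 with an adjusted p of 0.414. In Ins2+/+ livers Cyp2f2 was at -0.91 ± 0.27. Cyp2f2 was called lower in the fit of the 10 livers alone (edgeR adjusted p 0.0189) and with diet B 5 left out (-1.24, 0.0375). Diet B 5 was among the diet B livers nearest to diet A, so the call without it adds no support. The other 10 periportal markers did not go with it as a group, since 6 of the 11 estimates were higher. Cyp2b10, the classic target of the receptor CAR, had 2.488 ± 2.43 CPM on diet B and 9.911 ± 7.11 CPM on diet A (-2.53 ± 0.62, adjusted p 0.102), close to the floor of the shallow libraries.

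Glutathione transferases and other NRF2 targets had 22 of 27 estimates lower (median -0.16) and 0 called. Gstm6 averaged 24 CPM on diet B and 44.48 CPM on diet A (-0.94 ± 0.22, edgeR adjusted p 0.0881), with diet B 5 at 41.74 CPM among the diet A livers. Gstm3 was at -0.83 ± 0.24, Gstm2 at -0.59 ± 0.20 and Gstm1 at -0.41 ± 0.14. The Gstm genes are near copies of each other, so the split of reads among them is uncertain. Bhmt, which remakes methionine from betaine and homocysteine, had 1641 ± 445 CPM on diet B and 2643 ± 693 CPM on diet A (-0.69 ± 0.20, adjusted p 0.164). Mt1, a metallothionein that binds zinc, had 162.1 CPM on diet B and 365.3 CPM on diet A (-1.19 ± 0.40), with diet B 5 at 382.1 CPM.

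Early response and clock genes varied from liver to liver. Jun, a subunit of AP-1, measured 12.26, 25.70, 27.68, 53.44 and 51.68 normalised CPM on diet B and 8.101, 11.02, 5.829, 7.103 and 6.785 on diet A. All diet B livers were higher, by very different amounts (fitted ratio 4.14-fold, log2 2.05 ± 0.59, edgeR adjusted p 0.162), and in Ins2+/+ livers Jun was at 3.07 ± 0.56 and was called (adjusted p 0.0459). Of 18 immediate early genes 15 estimates were higher, with a median of 0.52 in Ins2+/- and 1.28 in Ins2+/+ livers. Diet B 4 and B 5 had 11 and 12 of the 18 above every diet A liver and B 1 had 1. Nfil3, a repressor in the clock's output, had 13.77 ± 3.81 CPM on diet B and 8.006 ± 2.81 CPM on diet A (0.85 ± 0.20, adjusted p 0.0866), and Cry2, a core repressor, was at 0.65 ± 0.19. Of 17 clock genes 16 estimates were higher (median 0.38). In diet B 5, 7 of the 17 were below every diet A liver and 5 were above every diet A liver. The time of day at death is not given in the sources used here and its part was not tested.

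Immune and translation genes lay a little lower. All 14 markers of Kupffer cells and macrophages tested had lower estimates (median -0.27, 0 called), and their summed level was 687.2 to 1112 normalised CPM on diet B and 745.1 to 1208 on diet A, so the groups overlapped. In diet B 5 all 14 were above the diet A median, and in B 2 all 14 were below it. In bulk tissue fewer cells of a type and less RNA per cell cannot be told apart. Of 28 interferon response genes 26 estimates were lower in Ins2+/- livers (median -0.19), against a median of 0.21 in Ins2+/+ livers, and 0 were called. Of 36 cytosolic ribosomal protein genes 34 were lower (median -0.16). Among them Rplp1, a stalk protein of the large subunit, did not overlap, at 223.9 ± 10.6 CPM on diet B and 297.3 ± 35.6 CPM on diet A (-0.41 ± 0.09, edgeR adjusted p 0.085). Ribosomal protein genes have many processed copies in the genome, and their values are uncertain for that reason. Markers of sinusoidal endothelium and of stellate cells had medians of 0.02 and 0.07.

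**Figure D5:**
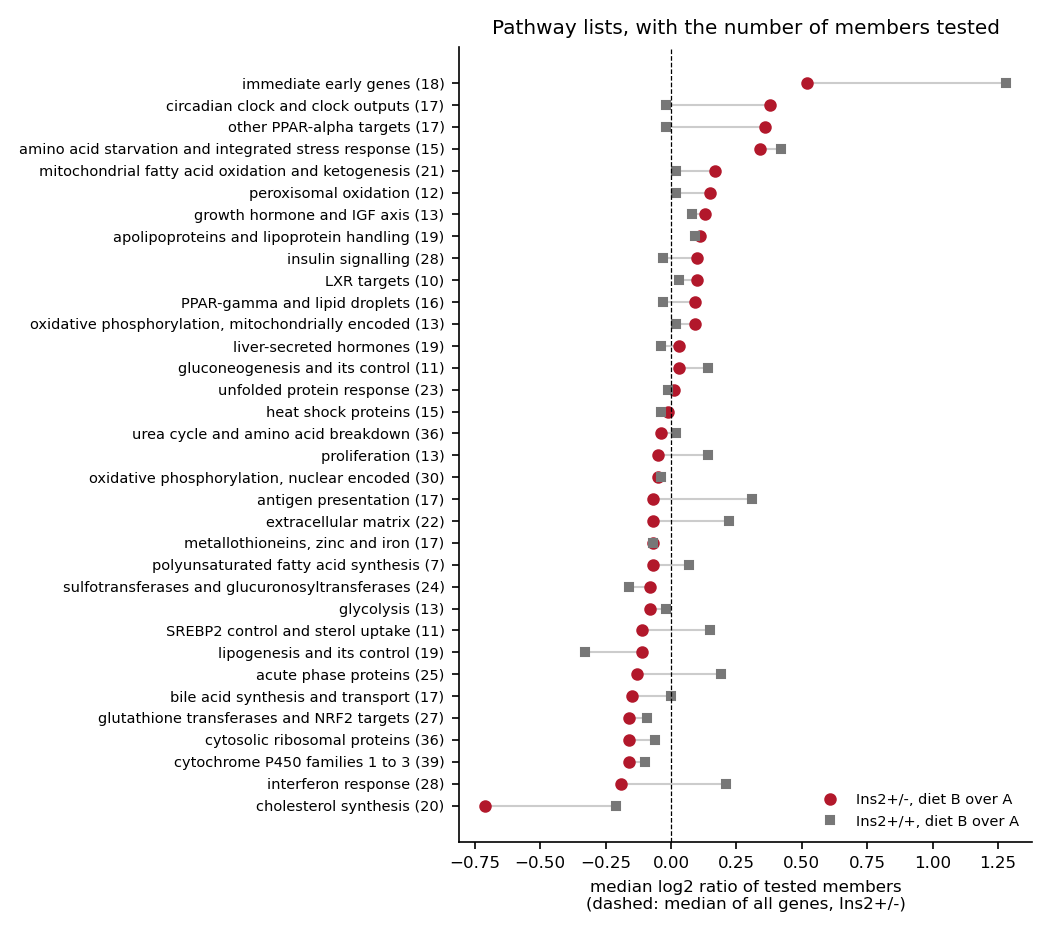
Median log2 ratio of diet B over diet A for 34 pathway lists, with the number of members tested in brackets, in Ins2+/- livers (red circles) and Ins2+/+ livers (grey squares); the dashed line is the median of all genes in Ins2+/- livers. Cholesterol synthesis stands lowest at -0.71, and immediate early genes are highest in both genotypes.

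Beyond the 5 calls, 48 more genes had an adjusted p from 0.05 to 0.1, which makes 37 higher and 16 lower below 0.1, with absolute log2 ratios from 0.33 to 1.91. All 53 had the same sign with B 2 and B 3 summed and without both, though in each case 3 had an adjusted p below 0.1. In Ins2+/+ livers 49 of them had the same sign. The following were chosen after their values were seen. Bmf, a BH3-only protein that promotes apoptosis, had the largest of these ratios and measured 13.77, 27.20, 31.63, 22.05 and 10.93 normalised CPM on diet B and 9.089, 3.673, 8.572, 3.472 and 6.031 on diet A (1.91 ± 0.38, edgeR adjusted p 0.0776). Its groups did not overlap, and B 2 and B 3 were the highest. Spry4, an inhibitor of receptor tyrosine kinase signalling, had 20.82 ± 4.45 CPM on diet B and 10.92 ± 1.90 CPM on diet A (0.94 ± 0.19). Erbb3, a neuregulin receptor, had 143.1 ± 23.8 CPM on diet B and 90.27 ± 17.1 CPM on diet A (0.67 ± 0.14). Fzd4, a receptor of the Wnt pathway, was at 0.84 ± 0.17, and Llgl2, a cell polarity protein, at 0.67 ± 0.13 with separate groups. Nr3c1, the glucocorticoid receptor, was at 0.43 ± 0.10 and Map2k6, a kinase upstream of p38, at 1.26 ± 0.28. Across all genes tested, 122 genes were higher on diet B in every liver (1.04%) and 114 were lower in every liver (0.968%).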

How the data were processed

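RNA of Ins2+/- and Ins2+/+ livers (400 ng per sample, TruSeq RNA kit version 2, HiSeq 2500) was sequenced over rapid-run lanes, per the labels' protocols, and which library ran on which lane is not given in the sources used here. The authors deposited estimated counts per gene made with kallisto 0.42.3, and bcl2fastq 1.8.4, GRCm38 and DESeq2 are also named, without roles, in the submitters' processing notes. Each table holds 46517 genes. Kallisto divides shared reads among transcripts by likelihood, which leaves values of near-identical genes uncertain. Estimated counts were rounded to whole numbers, and 46005 identifiers (98.9%) were matched to GENCODE mouse release 21, of which 118 share a symbol.

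The 19 livers of 4 groups were fitted together in edgeR 4.0.16 (R 4.3.3) with TMM scaling, filterByExpr, estimateDisp and the quasi-likelihood test, at 15 residual degrees of freedom and a biological coefficient of variation of 19.1%. DESeq2 1.42.0 and limma 3.58.1 gave alternatives. The test was checked on simulated data with known changes in 100 genes of each size. It recovered 80% of 2-fold and 41% of 1.5-fold changes, and 9 of 130 calls were false. With 130 calls against 5 in the main fit, the adjusted p threshold fell at a less strict unadjusted p than in the livers. These shares therefore do not give the share of changes recovered in the livers. The simulated libraries were drawn independently, which B 2 and B 3 may not be. The comparison, gene lists, motifs and naming rule were chosen with earlier results of these data known. Named were the insulin genes, 24 genes of liver metabolism, all called genes, and the member of lowest p or the called members of each list; cholesterol synthesis was described gene by gene, and other genes were chosen after their values were seen. Some genes that this rule names are not reported here, though counts and medians of lists include them. Lists are described by counts and medians, with no test. Alternatives were other scalings, tools, filters, thresholds and estimation, the 10 livers alone, libraries B 2 and B 3 summed, thinned or left out (the last added after seeing the data), livers with at least 5 CPM of islet hormones left out, a replicate block, and each of the 10 livers left out in turn. Figures were drawn with matplotlib from these values.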

Additional observations from a re-analysis of the deposited data

Results flagged for a closer look

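Dixon's criterion at the 95% level was applied to 422 groups of 5 livers (211 genes on each diet). It flagged 49 values as far from the other 4 of their diet. With independent values chance alone flags about 1 of 20 groups. That rate may not hold on diet B, where the deep and alike pair of libraries may come from 1 animal. All genes were measured in the same livers and some were chosen after their values were seen, so the 49 flags are not independent. Of these flags, 21 fell on diet B 5 and 14 on diet B 1. Values are normalised CPM with the nearest other liver of that diet in brackets.

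Diet B 5 was high for the sterol genes Hmgcs1 at 311.3 (153.4), Idi1 at 192.3 (109.1), Cyp51 at 104.8 (64.3) and Ebp at 161.2 (147.5), where it lay nearer to the diet A livers. It was also high for Ghr at 869.8 (619.9), Bhmt at 2432 (1527), Gstm6 at 41.74 (21.78), Mt1 at 382.1 (137.6), Cyp3a41a at 3710 (1818), Sult5a1 at 17.64 (3.674), the macrophage complement gene C1qc at 75.53 (48.18), the interferon gene Irgm1 at 65.34 (46.48), the early gene Nr4a1 at 12.42 (4.36), Ypel2 at 20.37 (13.36), Nostrin at 15.15 (12.82) and Arrdc2 at 11.18 (9.092). It was low for Ehhadh at 283.7 (460.1), Etfa at 334.9 (380), 1190002N15Rik at 39.25 (62.6), Pik3cb at 22.11 (29.6) and Tinagl1 at 18.88 (20.99). Diet B 5 was the shallowest diet B library, with 3911764 counts, and what sets it apart was not tested.

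Diet B 1 was high for the islet transcripts Ins2 at 2005 (26.24), Chga at 887.7 (6.371), Scg2 at 288.1 (3.564) and Chgb at 187.1 (0.9423), and with them for the acinar gene Prss2 at 25.93 (4.65), the epithelial gene Epcam at 7.26 (1.823) and Nupr1 at 26.68 (2.733). Its bile acid gene Cyp7a1 was at 396.9 (207.6) and Cth at 299.4 (243.4). It was low for Hnf4a at 446.4 (514.5), Dcn at 153.9 (176.2), Zfp874a at 28 (31.59), Pou2f1 at 12.45 (15.69) and Trib3 at 3.488 (6.985).

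Diet B 4 was high for Fasn at 984.5 (487.2) and the clock gene Bhlhe40 at 388 (224.6), and diet B 3 low for Daam1 at 46.3 (50.43). Among diet A livers, A 1 was high for Stx2 at 16.4 (12) and Pik3cb at 28.85 (20.81). A 2 was high for Chga at 54.07 (15.02) and Chgb at 9.183 (2.371) and low for Nr3c1 at 69.99 (91.15), Ebp at 161.4 (187.3) and Cyp2j6 at 52.44 (69.13). A 3 was high for the organic anion transporter Slco1a1 at 218.8 (6.866), for Cyp2c54 at 302.8 (146.3) and for Klf6 at 18.52 (12.06), and A 5 was low for Sik1 at 6.031 (14.9).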

How the results depend on the processing

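Counts of called genes are given as higher and lower on diet B in Ins2+/- livers, with 3 and 2 in the main analysis, then Ins2+/+ calls (main 5) and cholesterol synthesis genes called lower (main 1). DESeq2 gave 78 and 54, with 17 in Ins2+/+ livers and 7 cholesterol genes, and limma-voom with sample weights 267 and 286, with 1 and 14. All 5 genes were called by both. No filter on low counts gave 5 higher and 2 lower. A fit of the 10 livers alone gave 6 and 4, with 2 cholesterol genes, and robust estimation 6 and 2, with 1 in Ins2+/+ livers. Summing B 2 and B 3 gave 2 and 1, and thinning them 2 and 1, with 0 and 1 in Ins2+/+ livers and 0 cholesterol genes in either. Leaving both out gave 0 and 2, and leaving out the livers with islet transcripts 0 and 0, with 0 in Ins2+/+ livers and 0 cholesterol genes in either. An adjusted p below 0.1 gave 37 and 16, with 3 cholesterol genes. RLE and upper-quartile scaling and the stricter filter changed none of these counts. Each of the 10 livers left out in turn gave 2 to 45 higher, 1 to 36 lower, 0 to 12 in Ins2+/+ livers and 0 to 8 cholesterol genes. Genes whose groups do not overlap numbered 122 higher and 114 lower, 136 and 125 with B 2 and B 3 summed, 236 and 223 without both, and 139 to 273 and 125 to 252 with 1 liver left out, where fewer livers per group make separation easier.

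Across all these alternatives the 5 called genes kept their sign, with log2 ratios from -1.44 to -0.98 for Ccnd1, -1.01 to -0.69 for Dhcr7, 0.53 to 0.70 for Tns2, 0.46 to 0.61 for Grpel2 and 0.52 to 0.66 for Fnip1, and the 20 cholesterol genes stayed lower. The labels do not say that the replicate numbers pair the livers. The correlation of deviations between same-numbered livers was 0.24, -0.22, 0.04, 0.11 and 0.10, and between differently numbered livers it ran from -0.22 to 0.18. So few values cannot decide whether the numbers mark pairs. With a replicate block 2 genes were called higher and 3 lower, with 0 in Ins2+/+ livers and 2 cholesterol genes. Under the replicate block Fnip1 lost its call (adjusted p 0.068) and Msmo1 gained one (-0.97, adjusted p 0.0398), by edgeR.

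None of the genes that changed sign was called in the main fit or in the setting where its sign changed. With limma-voom these were Ins2 (-0.42), Irs1 (-0.13), Fgf21 (0.49), Epcam (-0.09), Prss2 (-0.12), Chgb (-0.86), Acta1 (-2.32), Slco1a1 (0.29), Chga (-0.78) and Scg2 (-1.23). Thinning B 2 and B 3 moved Ms4a1 to -0.24. Without the livers with islet transcripts they were Igf1 (-0.05), Irs1 (-0.47), Fgf21 (0.91), Bmp2 (0.07), Arrdc2 (0.09) and Orm2 (0.13). Without B 2 and B 3 they were Pklr (0.03), Igf1 (-0.10), Fgf21 (0.12), Cidec (-0.02), mt-Nd4l (-0.01) and Ms4a1 (-0.11). With 1 liver left out in turn, log2 ratios crossed 0 for Ins2 (-2.74 to 3.62), Chga (-2.73 to 5.41), Scg2 (-2.31 to 4.34) and Prss2 (-0.68 to 2.47), each lowest without B 1, and for Irs1 (-0.11 to 0.41), Ms4a1 (-0.12 to 0.34), Scd1 (-0.36 to 0.53), Igf1 (-0.03 to 0.18), Fgf21 (-0.54 to 0.92), Cidec (-0.07 to 0.48) and Slco1a1 (-2.92 to 0.55). Apart from settings built with fewer livers, the cause was not tested. Depth limits most the shallowest liver, diet A 5, where a count of 0 allows 2.33 CPM.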

Other observations

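Other gene groups are given by their median log2 ratio of diet B over diet A in Ins2+/- livers, and no member of any was called by edgeR. Amino acid starvation and integrated stress response genes had 12 of 15 higher estimates (median 0.34). Ppp1r15a, the phosphatase subunit that ends the stress response, had 17.13 CPM on diet B and 9.815 CPM on diet A (0.75 ± 0.20, edgeR adjusted p 0.124). The unfolded protein response lay at 0.01 over 23 genes, with the ER chaperone Hspa5 at 0.01 ± 0.11 and the ubiquitin ligase Syvn1 at -0.38 ± 0.10 without overlap. Of 25 acute phase genes 20 were lower (-0.13), with complement C3 at 7197 CPM on diet B and 9460 CPM on diet A (-0.39 ± 0.13). Apolipoprotein and lipoprotein genes lay at 0.11 over 19 genes, with Apoc2, the activator of lipoprotein lipase, at 0.57 ± 0.15.

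Urea cycle and amino acid breakdown genes lay at -0.04 (36 genes), sulfotransferases and glucuronosyltransferases at -0.08 (24), metallothionein, zinc and iron genes at -0.07 (17), glycolysis at -0.08 (13), gluconeogenesis at 0.03 (11), and polyunsaturated fatty acid synthesis at -0.07 (7). PPAR-gamma and lipid droplet genes lay at 0.09 (16), LXR targets at 0.10 (10), the growth hormone and IGF axis at 0.13 (13), and liver-secreted hormones at 0.03 (19). Nuclear and mitochondrially encoded oxidative phosphorylation genes lay at -0.05 (30) and 0.09 (13), heat shock proteins at -0.01 (15), antigen presentation at -0.07 (17), extracellular matrix at -0.07 (22).

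Among cell type markers, hepatocyte markers had a median of -0.01 over 10 genes, pericentral markers -0.01 over 11 and periportal markers 0.07 over 11. Markers of other cells were mostly too low to test: 3 of 8 cholangiocyte, 1 of 14 lymphocyte, 3 of 10 neutrophil and monocyte, 6 of 9 erythroid, 3 of 8 adipocyte and 4 of 8 skeletal muscle markers passed the filter. Their medians were 0.15, 0.06, -0.67, -0.22, -0.07 and 0.35. The adipocyte genes Plin1 and Lep had 0 counts in all 10 livers. The 11 pancreatic acinar markers tested summed to 6.606 to 195.8 normalised CPM on diet B and 7.539 to 98.57 on diet A, with a median of 0.23, and islet markers had a median of 3.00 over 9 genes, among them Slc2a2, which hepatocytes also express. That median rests on diet B 1, where the 9 summed to 5480 normalised CPM and 8 were above every diet A liver, while the other diet B livers held 345.5 to 532.3 and the diet A livers 470.4 to 827.5. Without diet B 1 the log2 ratios were -2.74 for Ins2, -2.73 for Chga and -2.31 for Scg2. In the acinar list diet B 1 had 8 of 11 members above every diet A liver.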
